A study of Gossypium arboreum with 12 samples.

Results

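Ovules of a cotton line that makes no lint were compared with ovules of a linted line at 10 days post anthesis (dpa), when lint fibres elongate. The comparison took 6 of the 12 arrays of the series, chosen by sample title. They were 3 arrays of the fuzzy-lintless mutant ANOI 1960 of *Gossypium arboreum* L. (*Fl*) and 3 arrays of the fibre-bearing wild type (*FL*), each a separate biological replicate of field-grown plants. The other 6 arrays held the same lines at 0 dpa and are used to show where the difference at 10 dpa stood apart. The *Fl* line was bred by crossing to *FL* with *Fl* as recurrent parent, and the lines are near isogenic but not perfectly so. The study describes more of the short fuzz in *Fl* and less in *FL*. A difference between the lines can therefore come from the lintless trait, from the fuzz or from other loci, and these cannot be told apart here. The stage field of *FL* replicate 1 gives 0 dpa while its title gives 10 dpa, and the title was followed.

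Each lint fibre is a single cell of the ovule's outer layer that stretches without dividing. Turgor drives the growth, enzymes such as expansins and xyloglucan endotransglucosylase/hydrolases (XTHs) loosen the wall, microtubules and actin direct the new material, and ethylene, auxin and gibberellin promote it. The RNA came from whole ovules, so fewer fibre cells and less RNA per fibre cell cannot be told apart. By the study's electron microscopy, elongated fibre cells were seen at this stage on *FL* ovules alone.

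Each transcript is read by a probe set, a handful of short probes. Its value is a log2 signal set to a median of 0 over the 12 arrays, so it gives no absolute level, and values of different probe sets are not compared. All 21791 probe sets for transcripts were tested. Differentially expressed transcripts (DETs) are those with a fold of at least 3 and an adjusted p (limma, Benjamini-Hochberg) no higher than 0.01. Names are those of the closest *Arabidopsis* protein in the study's own tables, given with the locus, and the roles given are those known in *Arabidopsis* or in plants at large. The tables name 234 of 270 listed probe sets, 15 of them by matches weaker than the study's cutoff. The gene lists were built from those tables, which the study chose on these arrays, so a list's direction is not independent evidence. Of the 173 probe sets in lists, 163 are in the study's own list for 10 dpa, of which 160 were called, and none of the other 10 was. The counts below thus describe transcripts picked for their difference and not a pathway at large.

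The large differences ran one way. Of all probe sets, 270 (1.24%) were DETs. In *Fl* 43 were higher (0.197%) and 227 lower (1.04%). At any fold 18.8% passed the same adjusted p, 1993 higher (9.15%) and 2114 lower (9.7%). At 2-fold or more the counts were 162 higher and 514 lower, at 8-fold 4 and 52, and at 32-fold 1 and 9. The median difference over all probe sets was 0.04 on the log2 scale, with 1% of probe sets below -1.61 and 1% above 0.89. Pearson's r between arrays of a line was 0.836 to 0.849 in *Fl* and 0.909 to 0.915 in *FL*, taken across probe sets, which are no independent replicates. No DET had overlapping lines, as the rule nearly forces. Without overlap were also 43.2% of all probe sets, 24% with *Fl* above and 19.2% with *Fl* below. At 0 dpa 0.381% of all probe sets were DETs. By the prefix of the probe set, most probes came from cotton species other than *G. arboreum*. Lower DETs were 1.44% of Ghi, 1.01% of GhiAffx, 0.543% of Gra and 0.160% of GraAffx probe sets. They were 4.48% of the 67 GarAffx and 15.2% of the 33 GbaAffx probe sets. The part of probe origin in the calls was not tested.

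**Figure D1:**
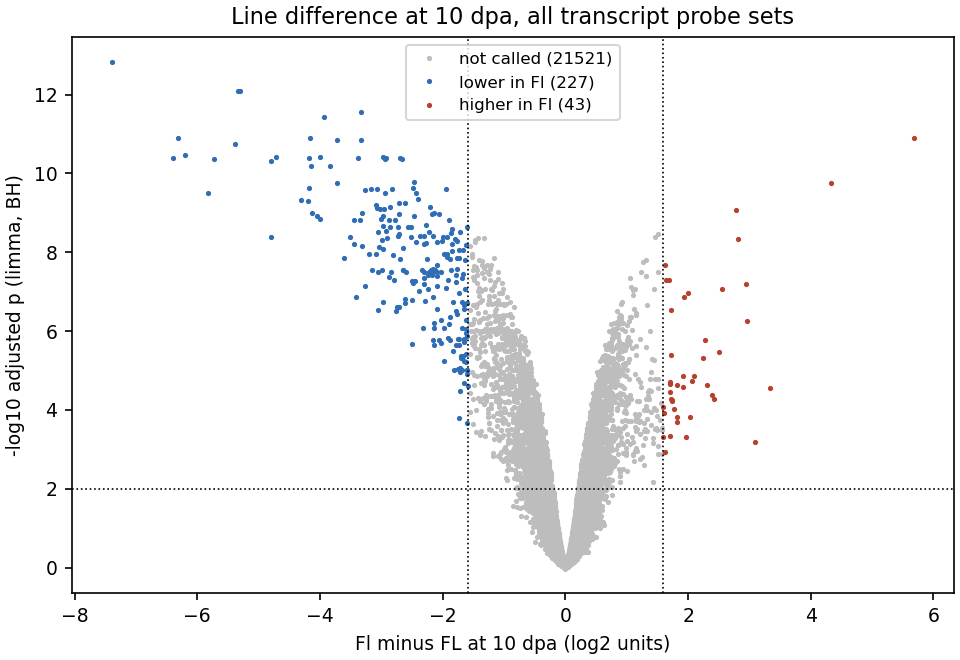
Each point is 1 of 21791 probe sets, with the log2 difference *Fl* minus *FL* at 10 dpa on the x axis and -log10 of the adjusted p on the y axis. Dotted lines mark a fold of 3 and an adjusted p of 0.01, and the 227 lower DETs reach a log2 difference of -7.39 while the 43 higher ones reach 5.68.

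**Figure D2:**
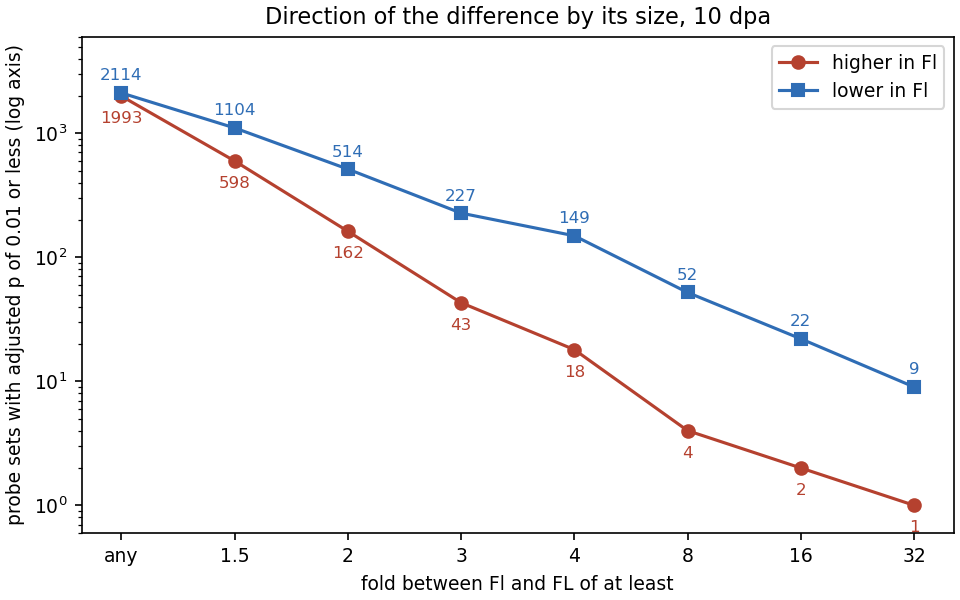
Number of probe sets with an adjusted p of 0.01 or less (y axis, log scale) that differ between *Fl* and *FL* by at least the fold on the x axis, at 10 dpa. The counts are close at any fold (1993 higher and 2114 lower in *Fl*) and part with size, to 1 and 9 at 32-fold.

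Cell wall transcripts moved both ways in *Fl*, and wall loosening was the list with the most increases. Expansin-like B1 (AT4G17030.1) belongs to the expansin superfamily of wall proteins. Its first probe set gave -0.44, -0.16 and 0.04 in *Fl* against 5.98, 6.13 and 5.93 in *FL*, 73.5-fold lower in *Fl* (log2 difference -6.20, standard error 0.14, adjusted p = 3.5e-11, 3 arrays per line). The second probe set gave a log2 difference of -5.73. In *Fl* the first stood at the same level as at 0 dpa, with a change of -0.02, while in *FL* it gained 6.10.

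XTHs cut and rejoin xyloglucan, the chains that tie cellulose fibrils together, and different members took opposite directions. XTH7 (AT4G37800.1) was higher in *Fl* on all 3 of its probe sets. One of them gave 5.22, 5.09 and 5.26 in *Fl* against 2.27, 2.39 and 2.47 in *FL*, 7.03-fold higher (standard error 0.11, adjusted p = 4.7e-09), and the others were 6.91-fold and 5.87-fold higher. XTH7 increased with age in both lines, by 7.67 in *Fl* and 4.89 in *FL* on that probe set, so the gain was larger in *Fl* (interaction, the change of the line difference from 0 to 10 dpa, 2.78, adjusted p = 1.6e-07). The interaction was called at the DET thresholds for 1.63% of all probe sets, 0.0918% toward higher in *Fl* and 1.54% toward lower. XTH32 (AT2G36870.1) was 3.21-fold higher in *Fl*, with values of 0.94 to 1.19 in *Fl* against -0.60 to -0.59 in *FL*. In the other direction, XTH29 (AT4G18990.1) gave 0.01, 0.22 and -0.01 in *Fl* against 2.85, 2.85 and 2.68 in *FL*, 6.59-fold lower. XTH5 (AT5G13870.1) was 3.96-fold lower and XTH4 (AT2G06850.1) 3.31-fold lower, with *Fl* arrays below every *FL* array in each. The lower XTH5 and XTH4 are among the calls that repeated quantile normalization ends, at log2 differences of -0.79 and -0.75. Here and below, that step was run on the deposited values, already normalized and centred, and gives all arrays the same distribution. Before it, the SD across probe sets was 0.49 to 0.50 on *FL* arrays and 0.35 on *Fl* arrays at 10 dpa. The step can thus narrow technical and biological differences alike, and which it narrowed was not tested.

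The largest increase of all was FASCICLIN-like arabinogalactan 7 (AT2G04780.2), a cell surface proteoglycan of a family with roles in adhesion and wall structure. It gave 5.95, 5.85 and 5.79 in *Fl* against 0.04, 0.33 and 0.19 in *FL*, 51.2-fold higher in *Fl* (log2 difference 5.68, standard error 0.11, adjusted p = 1.3e-11). Its difference at 0 dpa was 0.37, and it then gained 6.01 in *Fl* and 0.71 in *FL*. Of the 13 probe sets listed for wall loosening and xyloglucan remodelling, 5 were called higher, 5 lower and 3 neither. The list includes a DnaJ chaperone probe set (AT2G17880.1, log2 difference -0.34), which another of the tables matches to a wall locus. Expansin A1 (AT1G69530.2), with a difference of 2.00 at 0 dpa, was at 0.36 at 10 dpa, and a further XTH (AT5G57560.1) was at 1.15, under the fold threshold.

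The 11 probe sets listed for wall precursors, glycosidases and pectin hold mostly enzymes, and each is in the study's list for 10 dpa. They also hold a pair of inhibitors, a LysM domain protein (AT5G62150.1) and unknown seed protein like 1 (AT1G49320.1). All 11 were lower in *Fl* (1.04% of all probe sets were), between -4.19 and -1.64 on the log2 scale with a median of -2.31. The UDP-glucose/UDP-galactose 4-epimerase 1 transcript (AT1G12780.1), whose enzyme interconverts sugar donors of pectin and hemicellulose, gave -0.26, 0.01 and 0.01 in *Fl* against 3.93, 4.17 and 4.21 in *FL*, 18.2-fold lower (standard error 0.12, adjusted p = 2.3e-10). Its change from 0 to 10 dpa was under 0.01 in size in *Fl* and 4.35 in *FL*. A second probe set of the epimerase was at a log2 difference of -1.74, also a DET. An inhibitor of wall and vacuolar invertase (AT1G47960.1) was 17.5-fold lower, with values of 0.06 to 0.51 in *Fl* against 4.31 to 4.41 in *FL*. Beta-galactosidases 1 (AT3G13750.1) and 2 (AT3G52840.1) and a further member of glycosyl hydrolase family 35 (AT2G16730.1), which remove galactose from wall polymers, were 7.17-fold, 6.04-fold and 4.96-fold lower. All 3 increased with age in both lines. Trichome birefringence-like 38 (AT1G29050.1), of a family that acetylates wall polymers, gave 0.71, 0.80 and 0.75 in *Fl* against 3.46, 3.47 and 3.46 in *FL*, 6.54-fold lower. Beta-xylosidase 1 (AT5G49360.1) and polygalacturonase inhibiting protein 1 (AT5G06860.1), an inhibitor of pectin breakdown, were 3.12-fold and 4.43-fold lower. After repeated quantile normalization 3 of the 11 were called.

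The 3 cytoskeleton transcripts of the tables, all in the study's list for 10 dpa, were also lower. Beta-6 tubulin (AT5G12250.1), a subunit of microtubules, gave 0.06, -0.24 and -0.03 in *Fl* against 3.06, 3.18 and 3.49 in *FL*, 9.93-fold lower (standard error 0.11, adjusted p = 1.0e-09). Profilin 5 (AT2G19770.1), which binds actin monomers, was 4.85-fold lower and actin depolymerizing factor 5 (AT2G16700.2) 3.23-fold lower. The tubulin alone of these kept its call after repeated quantile normalization. Of the array's cotton control probe sets, those for actin differed by -0.07 between the lines (exact permutation p = 0.5, two-sided, 3 arrays each, where 0.10 is the smallest p possible). Those for ubiquitin differed by -0.19, with every *Fl* array below every *FL* array (exact permutation p = 0.1).

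**Figure D3:**
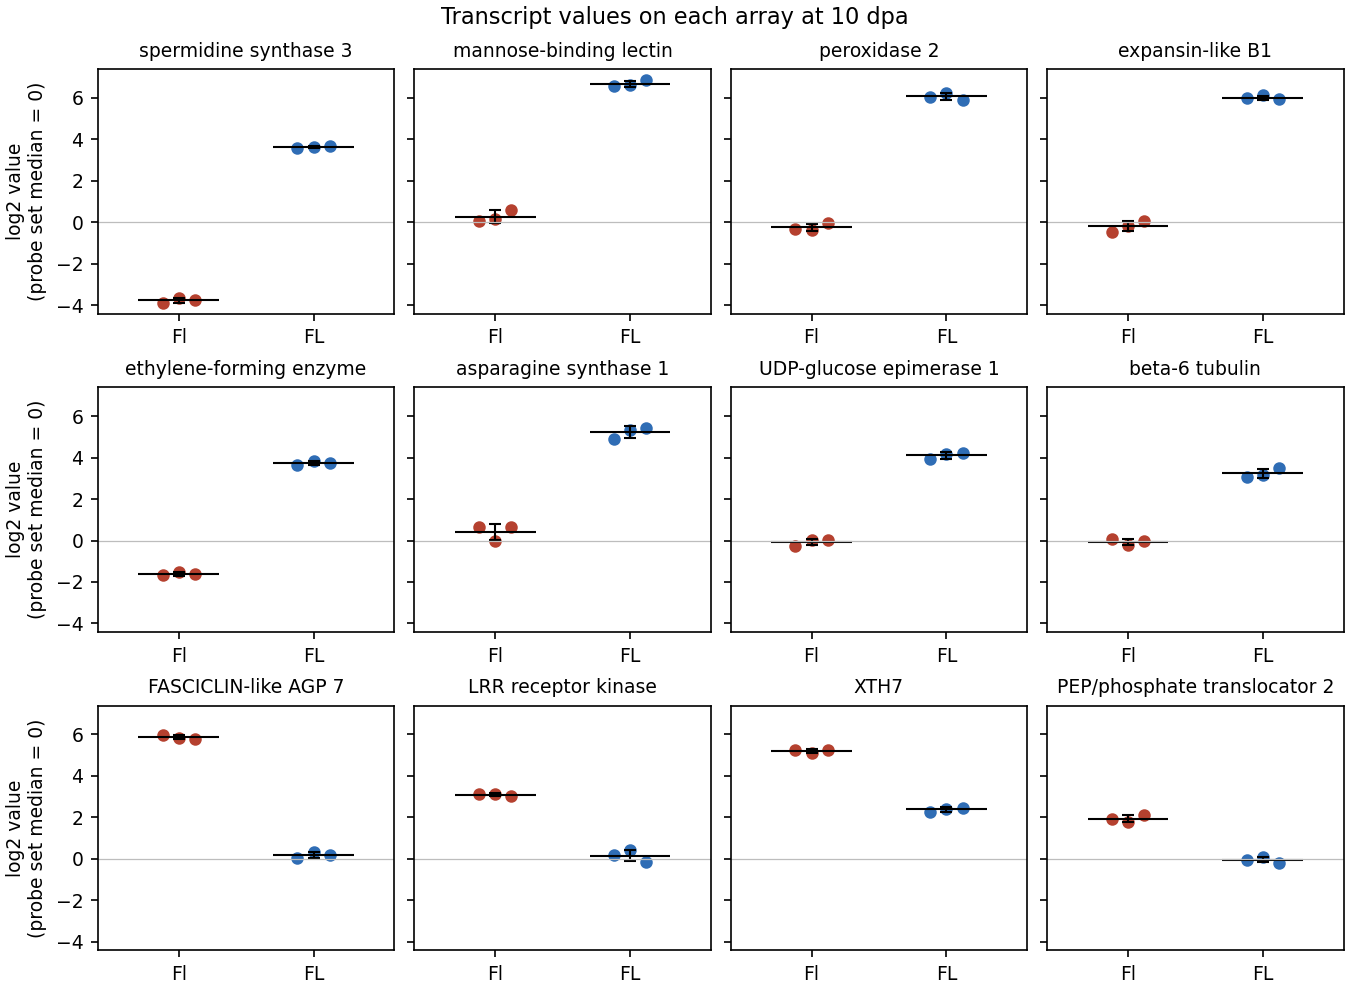
Log2 value on each array at 10 dpa for 12 probe sets (y axis, 0 is the median of the probe set over the 12 arrays), with the 3 *Fl* arrays on the left and the 3 *FL* arrays on the right. Bars give the mean and SD, and in the upper 8 panels every *Fl* array lies below every *FL* array while in the lower 4 every *Fl* array lies above.

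Aquaporins let water into the expanding cell and transporters supply its solutes. A plasma membrane aquaporin (AT2G37170.1) gave 0.46, 0.65 and 0.64 in *Fl* against 2.63, 2.60 and 2.62 in *FL*, 4.09-fold lower (standard error 0.10, adjusted p = 3.1e-08). This locus, beta-6 tubulin and expansin-like B1 were taken as markers of elongating fibre with earlier results of these data known, and their 4 probe sets are in the study's list for 10 dpa, so that all 4 were lower is a description only. Expansin A1 and XTH7, also of wall loosening, were not lower. Zinc induced facilitator 1 (AT5G13740.1), a vacuolar carrier, gave -2.33, -2.88 and -2.87 in *Fl* against 1.15, 1.39 and 1.53 in *FL*, 16.5-fold lower. It dropped by 2.89 in *Fl* from 0 to 10 dpa, while in *FL* it gained 1.55. A second probe set of this carrier was at a log2 difference of -2.74, also a DET. Pleiotropic drug resistance transporters 4 (AT2G26910.1) and 7 (AT1G15210.1) were 6.56-fold and 4.54-fold lower. Against these, a MtN21/EamA-like transporter (AT1G70260.1) was 3.10-fold higher, at 0.86 to 0.90 in *Fl* against -0.90 to -0.61 in *FL*. It was 1 of 7 listed transporters, all in the study's list for 10 dpa, of which the other 6 were lower. Without *FL* replicate 1 its log2 difference was 1.56, under the fold threshold.

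Ethylene is made from its precursor by ACC oxidase, and the transcripts of this step were lower in *Fl*. The ethylene-forming enzyme (AT1G05010.1), an ACC oxidase, was lower in *Fl* on all 3 probe sets. The leading one gave -1.68, -1.50 and -1.63 in *Fl* against 3.64, 3.83 and 3.72 in *FL*, 40.3-fold lower (standard error 0.07, adjusted p = 8.1e-13), and the others were 15.2-fold and 4.16-fold lower. A second oxygenase of this group (AT1G12010.1) gave -1.80, -1.76 and -1.65 in *Fl* against 3.58, 3.55 and 3.58 in *FL*, 39.6-fold lower. Both lost ground with age in *Fl*, the leading probe sets by -1.51 and -1.48, and gained in *FL* by 3.71 and 3.30. ACC synthase 6 (AT4G11280.1), which makes the precursor, stood apart from the oxidases at 0.71, 0.59 and 0.76 in *Fl* against 0.24, 0.22 and 0.28 in *FL*, 1.36-fold higher and not a DET (adjusted p = 0.0010168). The other 10 of 11 listed ethylene probe sets, response factors and a receptor-type kinase included, were lower, and these 10 are the ones in the study's list for 10 dpa. Outside the gene list, ethylene responsive element binding factors 4 and 5 (AT3G15210.1, AT5G47230.1), which the study lists for 0 dpa, were between -0.39 and 0.07 on 3 probe sets, none a DET.

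Of the 8 listed auxin probe sets, all in the study's list for 10 dpa, 7 were lower, against 1.04% of all probe sets. A putative auxin efflux carrier (AT5G65980.1) gave -0.77, -0.98 and -1.28 in *Fl* against 2.28, 2.38 and 2.35 in *FL*, 10.2-fold lower (standard error 0.12, adjusted p = 1.5e-09). The family of small auxin up RNAs (SAURs), early auxin-induced transcripts tied to cell expansion, gave opposite directions: 1 member (AT5G20820.1) averaged 0.74 in *Fl* and -0.97 in *FL*, 3.27-fold higher, and another (AT4G00880.1) was 3.20-fold lower. Indole-3-acetic acid inducible 28 (AT5G25890.1), a repressor of auxin response named by a weak match, was 3.55-fold lower. Of the 7 decreases, 2 were called after repeated quantile normalization, which with the SAUR increase left 3 of 8.

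Gibberellin 3-oxidase 1 (AT1G15550.1), which makes active gibberellin, gave 0.20, 0.31 and 0.47 in *Fl* against 2.37, 2.36 and 2.19 in *FL*, 3.94-fold lower (standard error 0.14, adjusted p = 8.4e-07). A pair of alpha/beta-hydrolases, of the protein family to which the gibberellin receptors belong (AT3G63010.1, AT5G06570.2), were 5.40-fold and 4.24-fold lower. For abscisic acid, a short-chain dehydrogenase matched to the synthesis enzyme ABA2 (AT1G52340.1) was 7.84-fold lower and the receptor component RCAR1 (AT1G01360.1) 4.26-fold. Allene oxide synthase (AT5G42650.1), of jasmonate synthesis and named by a weak match, differed by -1.90 at 0 dpa and -1.06 at 10 dpa, where it was not a DET. In all 6 of the 9 listed probe sets were lower and 3 were not called, with 7 of the 9 in the study's list for 10 dpa.

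Redox enzymes held one of the largest differences. Peroxidases use hydrogen peroxide to cross-link wall polymers or to loosen them. Peroxidase 2 (AT5G06720.1) gave -0.31, -0.39 and -0.04 in *Fl* against 6.05, 6.24 and 5.92 in *FL*, 79.8-fold lower (log2 difference -6.32, standard error 0.12, adjusted p = 1.3e-11). Its second probe set was 7.84-fold lower, and a further peroxidase (AT5G05340.1) was 8.34-fold and 5.14-fold lower on its pair of probe sets. Glutathione S-transferase TAU 8 (AT3G09270.1), which conjugates glutathione to toxic compounds, gave -2.51, -2.11 and -2.50 in *Fl* against 0.68, 0.62 and 0.61 in *FL*, 8.08-fold lower. At 0 dpa it had been higher in *Fl*, by 1.79. The phi 12 transferase (AT5G17220.1), linked to anthocyanin transport, showed the same turn in a milder form, at 2.11 and then -0.83, and was the only one of 8 listed probe sets not called at 10 dpa.

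All 13 probe sets listed for nitrogen and amino acids were lower in *Fl*, at a median of -2.86, against 1.04% of all probe sets. Each of the 13 is in the study's list for 10 dpa, so the count says nothing of other nitrogen transcripts. Asparagine is a nitrogen store, and the transcript of its glutamine-dependent synthase 1 (AT3G47340.1) was measured by 5 probe sets, between 8.05-fold and 27.9-fold lower. The widest gave 0.65, -0.02 and 0.65 in *Fl* against 4.92, 5.34 and 5.43 in *FL* (log2 difference -4.80, standard error 0.19, adjusted p = 4.1e-09). Carriers moved with it, with peptide transporter 3 (AT5G46050.1) at 7.72-fold lower and nitrate transporter 1.5 (AT1G32450.1) at 1.22 to 1.46 in *Fl* against 4.07 to 4.34 in *FL*, 7.26-fold lower. Glutamate dehydrogenase 3 (AT3G03910.1), at 0.11, 0.13 and -0.08 in *Fl* against 2.15, 2.08 and 1.95 in *FL*, was 4.01-fold lower. Glutamate decarboxylase 4 (AT2G02010.1), which makes gamma-aminobutyrate, and the lysine-degrading bifunctional enzyme (AT4G33150.3) were 3.22-fold and 3.48-fold lower. After repeated quantile normalization 6 of the 13 were called, among them all 5 asparagine synthase probe sets.

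Carbon transcripts were mostly lower, with a single plastid carrier in the other direction. Malate synthase (AT5G03860.2), of the glyoxylate cycle that turns stored fat into sugar, gave 0.85, 0.35 and 0.91 in *Fl* against 3.94, 4.04 and 4.07 in *FL*, 9.93-fold lower (standard error 0.14, adjusted p = 6.9e-09). Polyol/monosaccharide transporter 5 (AT3G18830.1), a sugar importer, was 7.95-fold lower. A phosphatase-like transcript (AT5G65140.1) and trehalose-phosphatase/synthase 9 (AT1G23870.1), both tied to trehalose phosphate, a sugar signal, were 4.95-fold and 3.81-fold lower. The tonoplast dicarboxylate transporter (AT5G47560.1), which loads malate into the vacuole, was 3.43-fold lower. By contrast phosphoenolpyruvate/phosphate translocator 2 (AT3G01550.1), which imports phosphoenolpyruvate into plastids, gave 1.93, 1.77 and 2.11 in *Fl* against -0.05, 0.06 and -0.19 in *FL*, 3.99-fold higher (standard error 0.11, adjusted p = 1.1e-07). It gained 2.01 with age in *Fl* and 0.05 in *FL*. A MtN3 sugar transporter (AT5G50790.1), at a log2 difference of -1.49, was the 1 listed probe set of 8 not called.

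Lipid transfer proteins carry lipids to the cell surface, and members of the family split. The one matched weakly to AT3G22600.1 gave 0.06, 0.46 and 0.24 in *Fl* against 5.12, 5.07 and 4.98 in *FL*, 27.9-fold lower (standard error 0.12, adjusted p = 5.0e-11). The one matched to AT2G45180.1 was higher on both of its probe sets, at 2.28, 2.36 and 2.24 in *Fl* against 0.54, 0.73 and 0.74 in *FL* (3.09-fold, a DET) and 2.84-fold (under the threshold). Its increase falls under 3-fold without *FL* replicate 1, at a log2 difference of 1.56. Acyl-activating enzyme 7 (AT3G16910.1) and phospholipase A 2A (AT2G26560.1) were 4.71-fold and 4.43-fold lower, and acyl-CoA oxidase 4 (AT3G51840.1), of fatty acid breakdown, 3.28-fold. A Sec14p-like transcript (AT1G01630.1) that differed by -2.50 at 0 dpa was at 0.07 at 10 dpa. Of 10 listed probe sets, 9 of them in the study's list for 10 dpa, 7 were lower, 1 higher and 2 not called.

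**Figure D4:**
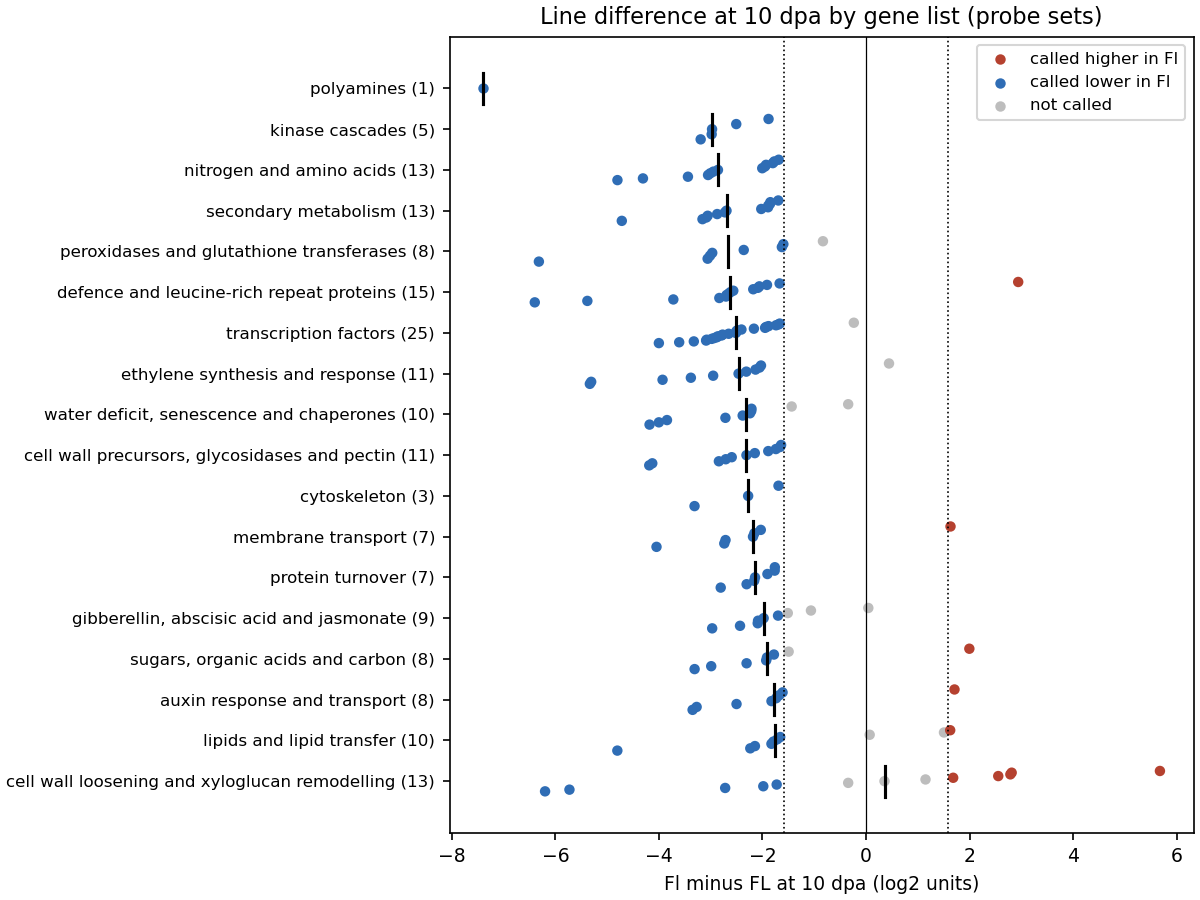
Log2 difference *Fl* minus *FL* at 10 dpa (x axis) of each probe set in 18 gene lists, with the number of probe sets in brackets, coloured by call. Black bars are list medians and dotted lines a fold of 3. Wall loosening is the only list with a median above 0 (0.36), and 6 of the lists hold a called increase.

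The 13 probe sets listed for secondary metabolism, also all from the study's list for 10 dpa, were lower at a median of -2.69. Dirigent-like proteins, which guide the coupling of lignan precursors, led: 1 (AT1G64160.1) gave -0.77, -0.77 and -0.61 in *Fl* against 3.95, 4.10 and 3.96 in *FL*, 26.3-fold lower (standard error 0.11, adjusted p = 3.8e-11), and another (AT1G58170.1) was 7.34-fold lower. UDP-glucosyl transferase 73C1 (AT2G36750.1) was 8.93-fold lower and a decarboxylase of aromatic amino acids (AT2G20340.1) 8.48-fold. The decarboxylase dropped by 2.86 in *Fl* with age and changed by 0.14 in *FL*. Acyl transferases (AT5G01210.1, AT3G29590.1) were 8.33-fold and 6.61-fold lower. Beta-carotene hydroxylase 2 (AT5G52570.1), of carotenoid synthesis, was 3.62-fold lower.

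Of the 15 probe sets listed for defence and leucine-rich repeat (LRR) proteins 14 were lower, against 1.04% of all probe sets. All 15 are in the study's list for 10 dpa, so the count describes that choice. An LRR protein (AT1G33590.1) gave, on its leading probe set, 0.07, -0.08 and 0.21 in *Fl* against 5.35, 5.40 and 5.60 in *FL*, 41.7-fold lower (standard error 0.11, adjusted p = 1.8e-11), with its other probe sets 13.2-fold and 6.29-fold lower. Pathogenesis-related 4 (AT3G04720.1), a chitin-binding protein, was 5.91-fold lower, a Kunitz protease inhibitor (AT1G17860.1) 3.77-fold and the major latex-like protein 28 (AT1G70830.3) 4.25-fold. The single increase was an LRR receptor-like kinase (AT5G01890.1) at 3.12, 3.12 and 3.01 in *Fl* against 0.19, 0.40 and -0.16 in *FL*, 7.67-fold higher (standard error 0.16, adjusted p = 6.6e-08).

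A MAP kinase cascade relays stress and hormone signals by phosphorylation, and its listed parts were all lower. Mitogen-activated protein kinase 3 (AT3G45640.1) gave 0.31, 0.75 and 0.70 in *Fl* against 3.70, 3.80 and 3.83 in *FL*, 9.15-fold lower (standard error 0.14, adjusted p = 1.1e-08), and 7.90-fold lower on a second probe set. MAP kinase kinase 9 (AT1G73500.1) was 5.68-fold lower, and kinase kinase kinase 13 (AT1G07150.2) was at -1.60 to -0.80 in *Fl* against 1.73 to 1.84 in *FL*, 7.86-fold lower. The list also holds a further protein kinase (AT5G55560.1), and all 5 of its probe sets are in the study's list for 10 dpa. All 5 carry a suffix that marks probes able to bind close relatives as well. Of the 25 listed transcription factor probe sets, 3 of them kinases that a table matches to a WRKY protein, 24 were lower and none higher, and the same 24 are in the study's list for 10 dpa. Homeobox protein 40 (AT4G36740.1) gave -0.93, -1.03 and -0.93 in *Fl* against 2.41, 2.29 and 2.38 in *FL*, 10.0-fold lower, and a log2 difference of -1.67 on a second probe set. BEL1-like homeodomain 1 (AT2G35940.3) was 7.36-fold lower. The listed factor not called was a C2H2 zinc finger (AT2G28710.1), higher in *Fl* by 2.03 at 0 dpa and at -0.24 at 10 dpa. The study's list for 0 dpa holds 9 further factor probe sets, of 6 loci, that the gene list leaves out, among them WRKY 40 (AT1G80840.1) and a protein of the integrase-type superfamily on 3 probe sets (AT1G19210.1). None of the 9 was a DET at 10 dpa, where they lay between -1.16 and 0.07 at a median of -0.35, after differences of 1.65 to 4.11 at 0 dpa.

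Of the 10 probe sets listed for transcripts known from drying or ageing tissue 8 were lower, against 1.04% of all probe sets. The same 8 are in the study's list for 10 dpa. Senescence-associated gene 21 (AT4G02380.1), a late embryogenesis abundant protein of mitochondria, gave 0.05, 0.26 and 0.16 in *Fl* against 4.42, 4.38 and 4.22 in *FL*, 18.1-fold lower (standard error 0.10, adjusted p = 4.2e-11), and 16.0-fold lower on a second probe set. A DnaJ chaperone (AT2G17880.1) gave -3.04, -2.85 and -2.68 in *Fl* against 0.97, 1.01 and 0.98 in *FL*, 14.4-fold lower. It dropped by 3.24 in *Fl* and gained 1.49 in *FL*. A second probe set of this locus, which the study lists as higher in *Fl* at 0 dpa, was at -0.34 and not called. Ribonuclease 3 (AT1G26820.1) and bifunctional nuclease I (AT1G11190.1), which degrade nucleic acids in dying cells, were 6.57-fold and 4.73-fold lower. Metallothionein 3 (AT3G15353.2, a weak match) was lower at both stages on both probe sets, by -1.11 and -1.65 at 0 dpa and by -2.21 and -1.44 at 10 dpa, the second value not a DET. Proteases and ubiquitin ligases were lower in all 7 listed cases, against 1.04% of all probe sets, and each of the 7 is in the study's list for 10 dpa. Among them were an aspartyl protease (AT1G03220.1) at a log2 difference of -2.81 and xylem serine peptidase 1 (AT4G00230.1) at -2.31. After repeated quantile normalization 2 of the 7 were called.

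Spermidine synthase 3 (AT5G53120.6), of polyamine synthesis, held the largest difference of all. It gave -3.88, -3.66 and -3.74 in *Fl* against 3.60, 3.61 and 3.68 in *FL*, with an adjusted p of 1.5e-13 and a standard error of 0.08 on a log2 difference of -7.39. It was as far apart at 0 dpa (-7.25), and its interaction of -0.14 was not called (adjusted p = 0.44689). The value rests on 1 probe set, with a suffix that marks probes able to bind close relatives. Whether the lines differ in sequence under its probes was not tested. Most other decreases had no counterpart at 0 dpa: the 227 lower DETs had a median difference of 0.03 there, and 122 of them were above 0. Of these 227, 132 increased by 3-fold or more in *FL* from 0 to 10 dpa with no call in *Fl*, 25 increased in both lines, 23 decreased in *Fl* with no call in *FL*, 3 decreased in *Fl* and increased in *FL*, 2 decreased in *FL* with no call in *Fl*, and 42 had no call in either. Among all 21791 probe sets the same classes held 308, 329, 135, 4, 106 and 20743. In all, 1.83% of probe sets increased and 1.08% decreased in *Fl*, and 2.94% increased and 0.927% decreased in *FL*. These stage changes use the same arrays of 10 dpa as the line difference.

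**Figure D5:**
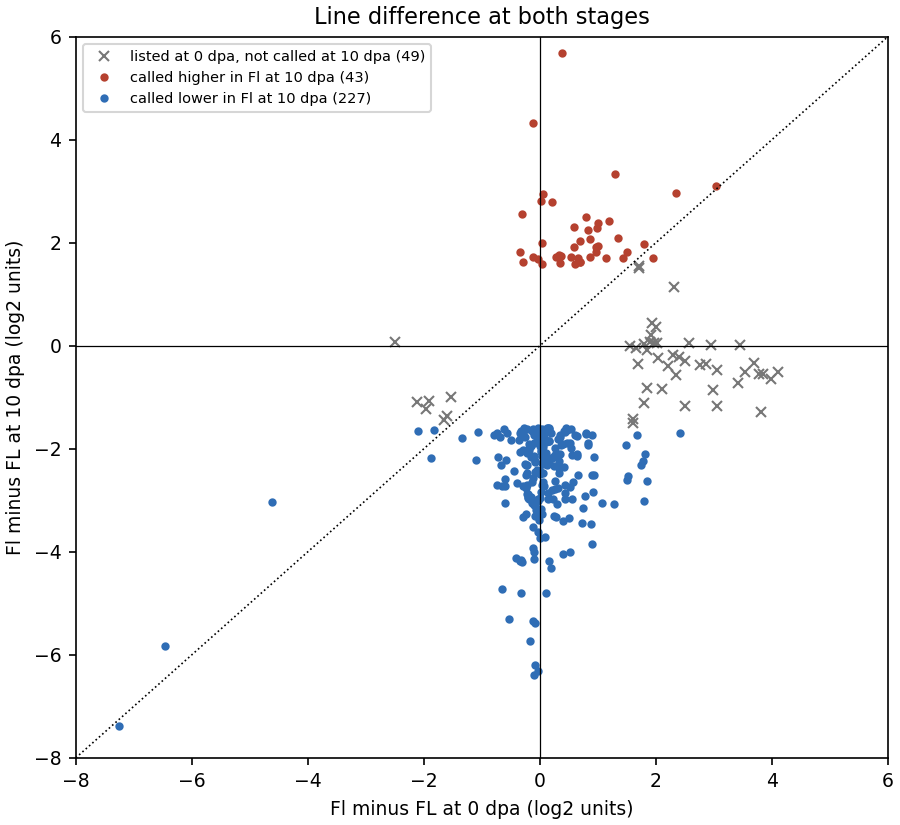
Log2 difference *Fl* minus *FL* at 0 dpa (x axis) and at 10 dpa (y axis) for the 43 higher and 227 lower DETs of 10 dpa and for the 49 transcripts that the study lists at 0 dpa and that are not called at 10 dpa. The dotted diagonal marks equal differences at both stages, where spermidine synthase 3 lies at -7.25 and -7.39, and most blue points scatter around 0 on the x axis.

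The transcripts that the study lists for 0 dpa gave a measure that the 10 dpa arrays had no part in choosing. Of these 58, 9 were DETs at 10 dpa, all lower in *Fl*. The 46 that were higher at 0 dpa had a median of -0.36 at 10 dpa, with 22 lower, 4 higher and 20 neither at an adjusted p of 0.01 or less and any fold. Over all probe sets 9.7% were lower and 9.15% higher by that rule. The 12 that were lower at 0 dpa were still lower in 11 cases, 5 of them DETs, at a median of -1.40. Among these 5, the major facilitator transporter AT5G62680.1 gave -1.48, -1.60 and -1.40 in *Fl* against 0.17, 0.22 and 0.10 in *FL*, 3.16-fold lower.

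Most increases lay outside the study's tables. Of the 43 higher DETs, 14 were in the study's tables, 12 of them with a homolog. The other 29 were in none of the tables and have no name here. The tables rest on the study's unpaired test of these same arrays, which passes over transcripts with a large spread, so a wider spread in the 29 follows from that choice. The SD of the 3 *FL* arrays had a median of 0.49 in the 29, against 0.10 over all probe sets. One of the 14, with no homolog, gave 4.29, 4.31 and 4.44 in *Fl* against 0.04, 0.18 and -0.16 in *FL*, a log2 difference of 4.33. The largest of the 29 by difference gave 1.81, 2.14 and 2.21 in *Fl* against -1.47, -2.14 and -0.24 in *FL*, 10.1-fold higher with a standard error of 0.37. In 25 of the 29 the lowest *FL* array was replicate 2. Without that array 32 of the 43 increases were called. The unpaired test of the methods called 13 of the 14 and 2 of the 29.

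One of the named increases was plastid-encoded. ATP synthase subunit beta (ATCG00480.1), of the chloroplast ATP synthase, gave 0.20, 0.59 and 0.64 in *Fl* against -1.54, -1.99 and -1.31 in *FL*, 4.26-fold higher (standard error 0.21, adjusted p = 1.4e-05). Its difference was 1.34 at 0 dpa. After subtracting group means over the 12 arrays, 16 of the 29 had a Pearson's r above 0.8 with this probe set, against 1 of the 13 other listed increases, 1 of the 227 decreases and 1.33% of all probe sets. These are correlations of residuals that share libraries, given as a description, and the listed increases were chosen for a small spread. A second plastid transcript, photosynthetic electron transfer B (ATCG00720.1), was at 1.54 and not a DET. A pair of nuclear photosynthesis transcripts had negative differences, with the light-harvesting protein LHCB1 (AT2G34430.1) at -1.53, -1.45 and -1.63 in *Fl* against -0.02, 0.00 and -0.09 in *FL*, and the small subunit of ribulose bisphosphate carboxylase (AT5G38430.1) at a difference of -1.11. Neither was a DET at 10 dpa, and both were higher in *Fl* at 0 dpa, by 1.61 and 1.79. Of the 4 ribosomal RNA probe sets on the array, 2 were higher in *Fl* (1.22 and 1.42), 1 lower (-0.60) and 1 at -0.03. Labelling controls spiked in before amplification differed by 0.22 (exact permutation p = 0.1, two-sided, 3 arrays per line). The 3' minus 5' signal, a sign of RNA quality, was measured by 6 control pairs and differed by -0.28 to 0.56 between the lines. The probes with the *G. hirsutum* prefix gave 0.56 for ubiquitin 11 and 0.40 for ss1 (exact permutation p = 0.1 each) and -0.28 for actin (p = 0.2, exact), while those with the *G. raimondii* prefix gave -0.02 for ubiquitin 11, -0.12 for ss1 and 0.15 for actin (p = 0.5 to 0.9, exact). The part of plastid transcripts, ribosomal RNA and RNA quality in these increases was not tested.

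Most probe sets that share a sequence cluster with a transcript in the study's list for 10 dpa, but are not in it, were not called. There were 60 such cluster mates, in 48 of 207 clusters, at a median of -0.23. At any fold 42 were neither higher nor lower, 18 were lower (30%, against 9.7% of all probe sets) and none was higher, and 1 was a DET. That DET, with no homolog, gave -0.01, -0.35 and 0.01 in *Fl* against 1.34, 1.70 and 1.54 in *FL*, 3.13-fold lower. A mate of the LRR receptor-like kinase that was higher (AT5G01890.1) was at -0.18. The study picked its list on these same arrays at the same fold and adjusted p. That few mates left out of it were DETs largely follows from that choice. The clusters were picked on these arrays too, so the counts of mates are a description only.

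Other large decreases had little known of them. A tetratricopeptide repeat protein (AT1G80130.1) gave -0.27, -0.07 and 0.07 in *Fl* against 4.06, 4.04 and 4.07 in *FL*, 17.7-fold lower (standard error 0.10, adjusted p = 6.5e-11). A transcript matched weakly to AT1G30260.1 was 13.2-fold lower, a UPF0497 protein (AT4G15610.1) was at -3.52, and a pair with no homolog stood at -4.19 and -4.16. Of the 227 decreases 174 have a homolog in the tables.

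Near the fold threshold, the 3 increases just inside were 3.02-fold, 3.02-fold and 3.06-fold and the 3 just outside 2.98-fold, 2.98-fold and 2.97-fold. The 3 decreases just inside were 3.01-fold, 3.02-fold and 3.03-fold, among them a glyoxalase I family transcript (AT1G15380.2), and the 3 just outside 2.95-fold, 2.94-fold and 2.94-fold. Array-wide scaling bore on the split. Repeated quantile normalization, which evens out the wider spread of the *FL* arrays, gave 57 higher and 136 lower. Centring on the hybridization controls, which differed by -0.15 between the lines (exact permutation p = 0.2, two-sided), gave 65 and 186.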

How the data were processed

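Biotin-labelled cRNA from 12 ovule RNA samples was hybridized to the cotton GeneChip. The authors summarised probe signals by robust multi-array average (RMA, named in the submitters' processing notes without a version) in GeneSpring, and the deposited values are log2 signals with each probe set's median over the 12 arrays at 0. Absolute levels are therefore lost and no filter on dim probe sets could be set. No value column lacked a sample. The number of arrays limits the precision, and counting depth does not apply.

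The 21791 probe sets were fitted with limma 3.58.1 (R 4.3.3) on all 12 arrays with a mean for each of 4 groups, and p-values were adjusted over all of them (Benjamini-Hochberg). The same fit gave differences at 0 dpa, changes between stages and the interaction. The 98 control probe sets were left out of the fit and compared by exact permutation tests. In simulated data 84 of 100 transcripts changed 2-fold and 100 of 100 changed 4-fold were recovered at an adjusted p of 0.01, with 5 false calls. The members and gene lists were chosen with earlier results of these data known. The rule named the 15 largest increases, the 25 largest decreases, the 4 largest of each list, members against their list's direction, transcripts listed at 0 dpa and called at 10 dpa, and neighbours of the threshold. Other list members were named for their role, after their values were seen. Of the 270 listed probe sets 63 carry different loci in different tables. Fold changes printed in the study's tables were not used. The sample titles do not say that replicate numbers pair the arrays, so the main fit has no block. Alternatives are another scaling, other variance models, the unpaired test of the methods, other thresholds, no cross-hybridizing probe sets and each array left out. The deposited files pair no probe set with a sequence, and none is shown.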

Additional observations from a re-analysis of the deposited data

Results flagged for a closer look

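Of the 270 transcripts called at 10 dpa, 211 had a line difference that changed between 0 and 10 dpa by 3-fold or more at an adjusted p of 0.01 or less (interaction in limma, 1.63% of all probe sets). The 270 were chosen by the difference at 10 dpa, which is part of the interaction. Their high count therefore largely follows from that choice and is a description only. For 7 the lines differed by 3-fold or more at both stages in opposite directions, all with *Fl* above *FL* at 0 dpa and below it at 10 dpa. The interaction was -4.80 for glutathione S-transferase TAU 8 (AT3G09270.1), -4.46 for an Hs1pro-1 protein (AT3G55840.1), -4.12 for terpene synthase 21 (AT5G23960.2) and -4.06 for ethylene responsive element binding factor 1 (AT4G17500.1). The other 3 have no homolog in the tables and gave -4.01, -3.91 and -3.40. The Hs1pro-1 transcript, for instance, was at -2.71, -1.96 and -2.34 in *Fl* against 0.19, 0.16 and 0.49 in *FL* at 10 dpa, after a difference of 1.84 at 0 dpa, and it dropped by 3.93 in *Fl* between the stages while *FL* changed by 0.54. Terpene synthase 21 was not called at 10 dpa after centring on the hybridization controls (-1.54).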

How the results depend on the processing

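Of 4855 values of 207 named probe sets under alternatives, 4654 kept direction and call, 149 lost the call, 50 gained it, and 2 turned round, both of a short-chain dehydrogenase (AT3G26770.1, 0.04), at -0.095 without *FL* 10 dpa replicate 2 and -0.039 without *Fl* 10 dpa replicate 2 (-0.095 to 0.21 over all arrays left out). These values include the fits without an array of 0 dpa, which changed no label. Of the 185 named probe sets called in the main fit, 80 lost the call under some alternative other than a threshold or a missing array. Without 1 array, 13 lost it. The DET counts were 131 (24 higher, 107 lower) without cross-hybridizing probe sets, 676 (162 and 514) at a fold of 2, 65 higher after centring on hybridization controls, which moved the median of all probe sets by 0.15, 15 higher with the unpaired test, and 136 lower after quantile normalization, which called 193, 171 of them shared with the 270. Leaving out each array gave 258 to 287 DETs, with 32 to 61 higher. At any fold the counts were 1693 (669 and 1024) with the unpaired test, 1758 (892 and 866) without cross-hybridizing probe sets, 6369 (3350 higher) at an adjusted p of 0.05, and 1012 lower after hybridization control centring. The interaction called 600 after that centring, 162 without cross-hybridizing probe sets and 767 at a fold of 2. Cluster mates past the adjusted p at any fold, 18 in the main analysis, were 4 with the unpaired test, and DETs among transcripts listed at 0 dpa, 9 in the main analysis, were 3 without cross-hybridizing probe sets and 23 at a fold of 2. Without cross-hybridizing probe sets, fewer were tested by construction, and lists held 2 called (wall loosening), 5 (wall precursors), 1 (cytoskeleton), 3 (ethylene), 5 (auxin), 3 (gibberellin, abscisic acid and jasmonate), 5 (nitrogen), 4 (lipids), 7 (secondary metabolism), 7 (defence), 0 (kinases), 7 (transcription factors), 3 (water deficit), 3 (protein turnover) and 0 (polyamines). After quantile normalization they held 3 (wall precursors), 1 (cytoskeleton), 3 (auxin), 6 (nitrogen), 4 (lipids), 5 (water deficit), 2 (protein turnover) and 4 (transport), and the auxin list held 5 after hybridization control centring or scaling to one spread. The cause was not tested.

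With the replicate number as a block the counts were unchanged at 270 DETs, 43 higher and 227 lower, while the count at any fold went from 4107 to 3527. Deviations of same-numbered arrays correlated at 0.0154, -0.0012 and 0.0794, and those of differently numbered arrays at -0.0859 to 0.0679. With so few arrays these values cannot decide whether same-numbered arrays were handled together.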
